A study of Homo sapiens with 8 samples.

Results

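The genes described here make cholesterol and fatty acids or control that synthesis. They were chosen by symbol as 30 named genes of the 35805 genes listed in the deposited expression table: 7 enzymes of the mevalonate pathway, 11 enzymes of the sterol branch, 6 regulators or sterol carriers and 6 enzymes of fatty acid synthesis and desaturation. All 30 were among the 14665 genes tested, which had a mean log2 value of at least 0 over the libraries. RNA was measured by rRNA-depleted RNA-seq in K562, a human erythroleukaemia cell line, in 8 libraries of 4 groups with 2 libraries each. Cells of every group carried dCas9-KRAB, a Cas9 protein that cannot cut, fused to a repressor domain that silences promoters a guide RNA directs it to (CRISPR interference). The groups were cells without a guide (untransduced), cells with a guide against AAVS1, a site used as a negative control (sgAAVS1), and cells with one of 2 guides against IRF2 (sg1-IRF2 and sg2-IRF2), an interferon regulatory factor. RNA of the cells with guides was taken 7 days after transduction. Nothing in the labels tells if a group's 2 libraries are separate cultures. The p-values below therefore measure only the spread between these libraries, which may be technical.

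Cholesterol is built from acetyl-CoA through mevalonate and squalene. The genes of the route are switched on together by the transcription factors SREBP2 and SREBP1, encoded by SREBF2 and SREBF1. When sterols are low, SCAP escorts the SREBPs from the endoplasmic reticulum to the Golgi, where they are cut and released to the nucleus; when sterols are high, INSIG1 and INSIG2 hold SCAP back. SREBP1 also drives fatty acid synthesis and desaturation. Proliferating cells such as K562 use both routes to make membranes.

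The deposited log2 values were converted back to whole reads. Each library had 5248359 to 6738348 reads on genes, the lowest and the highest both being sgAAVS1 libraries, and a member had between 72 reads (PMVK) and 4948 reads (FASN) in a library. IRF2 itself, the target, had 271 and 268 reads (untransduced) and 196 and 291 (sgAAVS1), against 4 and 8 under sg1-IRF2 and 22 and 21 under sg2-IRF2. The counts of replicates differed by about as much as counting noise or less in 3 groups (chi-square per degree of freedom 0.671 to 0.828) and by more in sgAAVS1 (1.64). Replicates were kept as 2 libraries a group. With the 3 agreeing pairs each counted as 1 sample, all the calls of members given below were lost. Fewer of all tested genes were called too, in every comparison. Only the sgAAVS1 pair then measured the spread, with 1 sample in each other group, so that fit does not decide whether the members differ. All 9 erythroid markers examined were present, at 1106 to 1210 RPM (reads scaled to 1000000 per library) in sum. Of 8 markers of other cell types, MS4A1, KRT5 and ALB had no read in any library, CD3E, CD79A and APOA1 had 2 to 14 reads in all libraries together, and EPCAM and PECAM1 had 3667 and 2030. The sum of those 8 lay between 107 and 122 RPM in every library.

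The sgAAVS1 libraries differed from each other in these genes. Replicate 1 was above replicate 2 for 24 of 30 members, by a median of 0.13 on the log2 scale, while over all tested genes it was above for 49.4% with a median of 0.00. All 7 mevalonate enzymes were among the 24, with a median of 0.19. In untransduced cells replicate 1 was the higher for 17 members (median 0.01) and for 52.8% of all tested genes. With sg1-IRF2 it was higher for 24 (median 0.04) and for 57.3% of all tested genes (median 0.02). With sg2-IRF2 it was higher for 6 (median -0.03) and for 41.7% of all tested genes (median -0.02). The members of the IRF2-guide pairs thus also lay mostly to one side, with smaller medians than in sgAAVS1. sgAAVS1 replicate 1, the library with the fewest reads, was the highest of the 8 libraries for 17 members. sgAAVS1 replicate 2, with the most reads, was the lowest for 9. How often they are so over all tested genes was not counted. The median member difference in each comparison with sgAAVS1 is therefore also given without each of its libraries. Most other values are given with both libraries only.

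**Figure D1:**
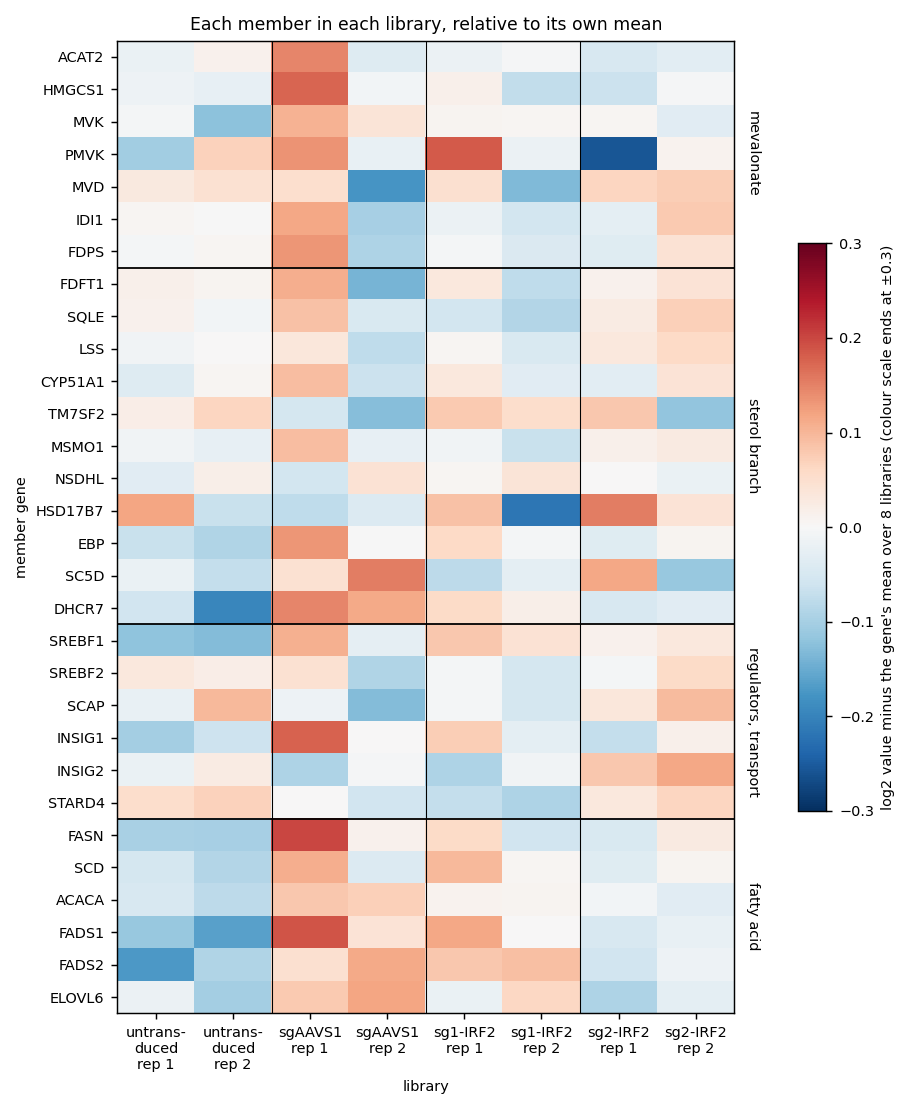
Log2 value of each of the 30 members in each of the 8 libraries, as the difference from that gene's mean over the libraries, with members ordered by role. Rows are genes, columns are libraries by group, and colour gives the log2 difference. sgAAVS1 replicate 1 is the highest library for 17 members (not counted over all tested genes), and the colour scale ends at 0.3 in each direction.

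Per length, the genes spanned from 6.04 to 95.2 RPM per exonic kilobase. SCD, which introduces the double bond of oleate, stood highest at 95.2 ± 4.17 (SD, n = 8 libraries). FASN, which makes palmitate from malonyl-CoA, followed at 77.2 ± 5.05, and INSIG1, itself a sterol-repressed target of the SREBPs, at 62.7 ± 3.70. Next came CYP51A1, the lanosterol demethylase, at 52.1 ± 1.54 and SQLE, the squalene epoxidase, at 48.4 ± 1.82. HMGCS1 (46.8 ± 2.35) and SREBF2 (46.7 ± 1.34) followed, and the SD ranges of these 3 overlapped. SREBF2 was above SREBF1 (29.2 ± 1.62), and INSIG1 was above INSIG2 (7.74 ± 0.410) in all libraries. The lowest were FADS2, a desaturase of polyunsaturated fatty acids, at 6.32 ± 0.442 and HSD17B7, a ketoreductase of the sterol branch, at 6.04 ± 0.490, which overlapped. These levels divide by all exonic bases of the gene in GENCODE 29. For the deposited values, neither counting unit nor strand setting is given in the sources used here. For CYP51A1, 79.4% of the exonic bases overlap another gene on the same strand, and for ACAT2 52.3% overlap genes on the opposite strand, so their reads are less certain to be their own.

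**Figure D2:**
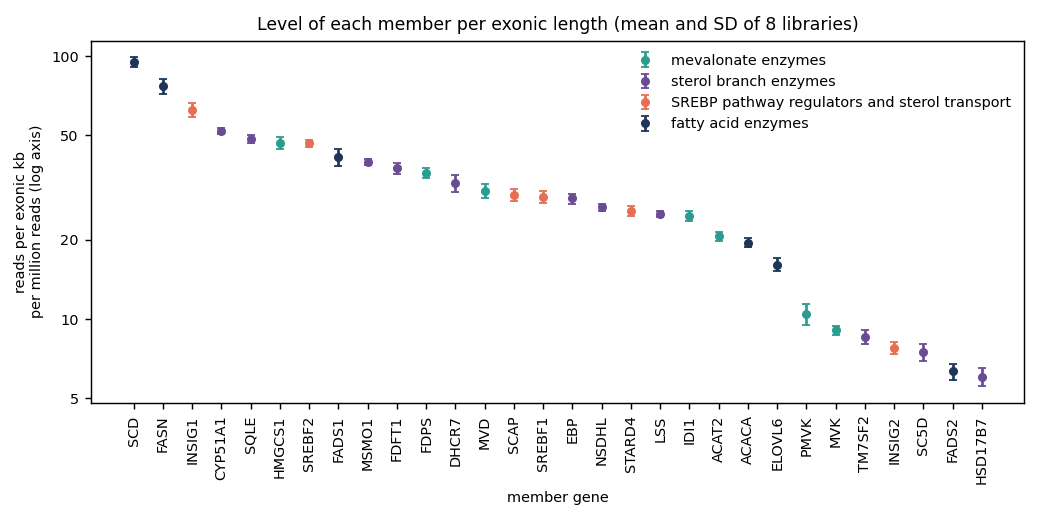
RPM per exonic kilobase of each member, on a log axis, as the mean (point, coloured by role) and SD (bar) of the 8 libraries. SCD, FASN and INSIG1 lie highest and HSD17B7 and FADS2 lowest.

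The libraries varied little in any of these genes. The gap between the highest and the lowest of the 8 libraries had a median of 0.22 on the log2 scale over the members, from 0.10 (NSDHL) to 0.44 (PMVK, the member with the fewest reads). Over the 10428 tested genes at or above the lowest member's mean level the median gap was also 0.22. By group means, sgAAVS1 was the highest group for 14 of 30 members, untransduced cells the lowest for 11 and sg1-IRF2 the lowest for 10. The same counts were not made over all tested genes, so they are not shown to be particular to the members.

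Promoters are shown for the members that passed a test in some comparison below and for SREBF2, whose promoter held a sterol regulatory element core. RefSeq promoters (GRCh38.p14, 250 bases before to 50 after the gene start) were given for 26 of the 30 members, ACAT2, FDFT1, FASN and SQLE having no entry. The capitals mark the sterol regulatory element core (TCACNCCAC), the CCAAT box and the GC box (GGGCGG), each read on both strands, so that ATTGG and CCGCCC are the same boxes on the other strand. Where a gene had 2 listed starts, the one with marked letters is shown.
DHCR7, chr11:71448344-71448643, minus strand: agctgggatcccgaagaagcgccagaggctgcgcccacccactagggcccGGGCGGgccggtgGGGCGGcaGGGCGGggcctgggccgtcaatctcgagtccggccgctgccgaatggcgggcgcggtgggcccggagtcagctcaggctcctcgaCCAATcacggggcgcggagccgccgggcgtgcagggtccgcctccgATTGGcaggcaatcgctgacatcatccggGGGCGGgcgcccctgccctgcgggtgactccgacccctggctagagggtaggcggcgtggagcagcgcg
FADS1, chr11:61816954-61817253, minus strand: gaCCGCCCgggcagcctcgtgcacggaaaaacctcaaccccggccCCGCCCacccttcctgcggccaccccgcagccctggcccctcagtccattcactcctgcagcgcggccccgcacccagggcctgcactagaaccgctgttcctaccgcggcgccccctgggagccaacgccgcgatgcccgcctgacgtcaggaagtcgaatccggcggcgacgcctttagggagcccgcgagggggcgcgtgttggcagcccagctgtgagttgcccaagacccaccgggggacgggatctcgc
FADS2, chr11:61816154-61816453, plus strand: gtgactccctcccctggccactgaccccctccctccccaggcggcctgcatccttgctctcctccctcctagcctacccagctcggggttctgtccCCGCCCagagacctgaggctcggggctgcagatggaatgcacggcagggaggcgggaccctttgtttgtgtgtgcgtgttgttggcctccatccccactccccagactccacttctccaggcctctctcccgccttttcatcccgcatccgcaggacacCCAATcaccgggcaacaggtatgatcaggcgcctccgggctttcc
SREBF1, chr17:17836937-17837236, minus strand: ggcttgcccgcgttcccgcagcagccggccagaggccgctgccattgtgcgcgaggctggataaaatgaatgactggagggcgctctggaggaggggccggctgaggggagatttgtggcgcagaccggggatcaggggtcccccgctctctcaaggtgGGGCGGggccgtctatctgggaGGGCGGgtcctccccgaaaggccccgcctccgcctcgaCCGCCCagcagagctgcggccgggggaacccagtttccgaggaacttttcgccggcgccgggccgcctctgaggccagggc
SREBF2, chr22:41832855-41833154, plus strand: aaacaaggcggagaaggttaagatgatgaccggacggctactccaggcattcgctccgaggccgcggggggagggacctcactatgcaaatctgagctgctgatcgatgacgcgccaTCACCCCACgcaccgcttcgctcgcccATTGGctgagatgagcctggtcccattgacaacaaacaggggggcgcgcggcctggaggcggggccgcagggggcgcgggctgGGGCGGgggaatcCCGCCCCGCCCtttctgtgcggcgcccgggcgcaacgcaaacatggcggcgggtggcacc

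The sterol core was found in 1 of the 26 member genes (3.85%), SREBF2, where it starts at position -133 from the gene start with a CCAAT box at -106. It was found in 1.44% of the 9612 tested genes with a promoter and in 1.13% of all 35116 promoters. For each motif a gene counts if any of its listed promoters holds it, while the share of all promoters counts each promoter by itself. CCAAT boxes, which NF-Y binds, were found in 19 of 26 members (73.1%), against 43.3% of tested genes and 34.6% of all promoters. DHCR7 holds 2 of them, starting at -94 and -48. GC boxes, which Sp1 binds, were found in 25 of 26 (96.2%), against 76.8% and 45.0%. The core of the interferon-stimulated response element (GAAA, any 2 bases, GAAA), which interferon regulatory factors bind, was found in 0 of 26 members and in 3.86% of tested genes. The motifs share base composition with the promoters they sit in, a match is letters only, and the absence of a match says only that these letters are not in these 300 bases. FADS1 and FADS2 stand head to head on chromosome 11, with the printed starts at 61817003 and 61816404.

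The first comparison asked what IRF2 knockdown did, with both IRF2 guides set against sgAAVS1. No member passed the test (limma, adjusted p under 0.05 over all 14665 genes), while 1.42% of all tested genes did (0.573% higher and 0.846% lower). Without adjustment, p was under 0.05 for 6 of 30 members (20%) and for 11.1% of all tested genes, and limma with voom weights on the reads also called 0. The median member difference was -0.03 on the log2 scale against 0.00 over all tested genes, 11 members being above 0 and 19 below, and the differences ran from -0.13 to 0.11. The 95% intervals of all 30 members lay between -0.33 (PMVK) and 0.27 (TM7SF2), which is 0.794-fold to 1.21-fold, with a median half-width of 0.10.

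**Figure D3:**
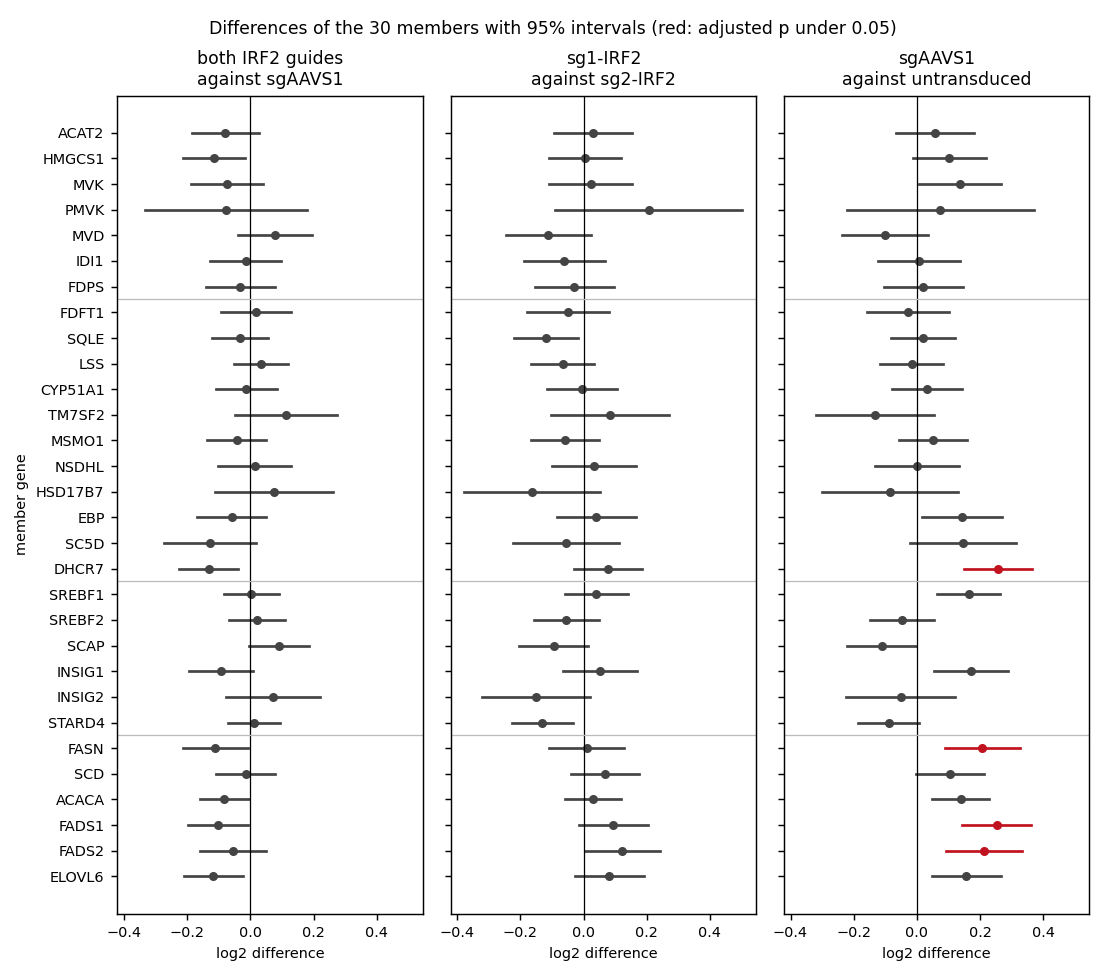
Log2 difference of each member (point) with its 95% interval (line) from limma, ordered by role, in both IRF2 guides against sgAAVS1 (left), sg1-IRF2 against sg2-IRF2 (middle) and sgAAVS1 against untransduced cells (right), with called members in red. No member is called on the left or in the middle, and DHCR7, FADS1, FADS2 and FASN are called on the right.

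The mevalonate enzymes had a median difference of -0.07 between the IRF2 guides and sgAAVS1, and 0 of 7 passed. HMGCS1, the synthase that makes HMG-CoA, had log2 values of 7.96 and 7.95 (untransduced), 8.15 and 7.96 (sgAAVS1), 7.99 and 7.90 (sg1-IRF2) and 7.91 and 7.97 (sg2-IRF2). sgAAVS1 replicate 1 stood above the other 7 libraries, which were close together, and the difference was -0.12 (adjusted p = 0.357). The thiolase ACAT2 differed by -0.08, the mevalonate kinases MVK and PMVK by -0.07 and -0.08, the isomerase IDI1 by -0.01, the farnesyl diphosphate synthase FDPS by -0.03 and the decarboxylase MVD by 0.08. Of these 7, MVD alone had a value above 0.

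The sterol branch enzymes had a median difference of -0.01, and 0 of 11 passed. DHCR7, the reductase of the last step to cholesterol, had the lowest adjusted p of all members, 0.203, with a difference of -0.13 (95% interval -0.23 to -0.04). SC5D, the desaturase acting just before it, differed by -0.13 with a wider interval (-0.27 to 0.02, adjusted p = 0.543). The squalene enzymes FDFT1 (0.02), SQLE (-0.03) and LSS (0.03) and the demethylating enzymes CYP51A1 (-0.01), MSMO1 (-0.04) and NSDHL (0.01) were all within 0.05 of 0. The reductase TM7SF2 differed by 0.11, HSD17B7 by 0.07 and the isomerase EBP by -0.06.

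The regulators had a median difference of 0.02, and 0 of 6 passed. SREBF2 had log2 values of 8.69 and 8.67 (untransduced), 8.70 and 8.56 (sgAAVS1), 8.65 and 8.60 (sg1-IRF2) and 8.65 and 8.71 (sg2-IRF2). The sgAAVS1 libraries spanned nearly the whole range of the 8, and the difference was 0.02 (95% interval -0.07 to 0.11, adjusted p = 0.925). SCAP had 7.75 and 7.86, then 7.75 and 7.64, then 7.76 and 7.71, then 7.80 and 7.86, in the same order of groups. sgAAVS1 replicate 2 was its lowest library, and its difference was 0.09 (adjusted p = 0.474).

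INSIG1 had log2 values of 7.92 and 7.97 (untransduced), 8.20 and 8.03 (sgAAVS1), 8.10 and 8.0 (sg1-IRF2) and 7.96 and 8.04 (sg2-IRF2). Its highest library was sgAAVS1 replicate 1, and its difference was -0.09 (adjusted p = 0.518). INSIG2 had 5.10 and 5.15, then 5.03 and 5.12, then 5.03 and 5.11, then 5.20 and 5.24, in that order of groups. Its sg2-IRF2 libraries were the highest of the 8 while sg1-IRF2 overlapped sgAAVS1, and its difference was 0.07 (adjusted p = 0.809). STARD4, which carries sterols between membranes, differed by 0.01, and SREBF1 by 0.00 (adjusted p = 0.99).

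The fatty acid enzymes had a median difference of -0.09, all 6 were below 0, and 0 of 6 passed. Without adjustment p was under 0.05 for 4 of them: ELOVL6, the elongase that makes stearate (-0.12), FASN (-0.11), the desaturase FADS1 (-0.10) and ACACA, which makes malonyl-CoA (-0.08). FADS2 differed by -0.06 and SCD by -0.01. The values rest on the sgAAVS1 libraries. Without sgAAVS1 replicate 2 the difference was -0.21 for HMGCS1, -0.21 for FASN, -0.18 for FADS1 and -0.18 for INSIG1. Without sgAAVS1 replicate 1, MVD was at 0.19. Each of these fits leaves 1 sgAAVS1 library, so the spread within sgAAVS1 is not measured and no calls are given. MVD was at -0.04 without replicate 2. The median over the 30 members moved from -0.09 to 0.02 between these fits.

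Each IRF2 guide alone gave the same count. With sg1-IRF2 against sgAAVS1, 0 of 30 members passed, against 0.791% of all tested genes (0.232% higher and 0.559% lower). An unadjusted p under 0.05 was seen for 0 members and for 6.44% of all tested genes. With sg2-IRF2 against sgAAVS1, 0 of 30 passed, against 3.41% of all tested genes (1.79% higher and 1.62% lower). Without adjustment p was under 0.05 for 7 members (23.3%) and for 17.0% of all tested genes. The lowest adjusted p was 0.0727, for DHCR7. limma with voom weights called 0 in both. Without sgAAVS1 replicate 2 the median member difference was -0.09 with sg1-IRF2 and -0.09 with sg2-IRF2. Without sgAAVS1 replicate 1 it was 0.02 with sg1-IRF2 and 0.04 with sg2-IRF2.

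IRF2 reads differed between the guides, but no member passed a test of sg1-IRF2 against sg2-IRF2, a comparison in which 1.58% of all tested genes passed (0.586% higher and 0.989% lower). Without adjustment p was under 0.05 for 3 members (10%) and for 13.6% of all tested genes, and limma with voom weights called 0. STARD4 had log2 values of 7.44 and 7.46 (untransduced), 7.39 and 7.33 (sgAAVS1), 7.32 and 7.30 (sg1-IRF2) and 7.42 and 7.45 (sg2-IRF2). The guides did not overlap, and STARD4 was 0.13 lower with sg1-IRF2 (95% interval of the difference -0.23 to -0.03, adjusted p = 0.192). The intervals of the 30 members lay between -0.38 (HSD17B7) and 0.50 (PMVK).

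The control guide was then set against untransduced cells. These groups differ both in carrying a guide and in having been transduced, which cannot be told apart. DHCR7, FADS1, FADS2 and FASN were higher with sgAAVS1 and no member was lower, 4 of 30 (13.3%) in a comparison where 4.42% of all tested genes were called, 2.06% of them higher and 2.36% lower as shares of all tested genes. Without adjustment p was under 0.05 for 11 members (36.7%) and for 18.5% of all tested genes. The median member difference was 0.05 against 0.01 over all tested genes, and 21 of 30 were above 0. The fatty acid enzymes had a median of 0.18 with all 6 above 0 and 3 called, the sterol branch 0.02 with 1 called, the mevalonate enzymes 0.06 and the regulators -0.05 with none called.

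DHCR7 (ENSG00000172893, chr11:71428193-71452868, minus strand, hg38) had log2 values of 7.22 and 7.09 (untransduced), 7.43 and 7.40 (sgAAVS1), 7.34 and 7.30 (sg1-IRF2) and 7.23 and 7.25 (sg2-IRF2). Its sgAAVS1 libraries were the highest. Every guide library was above both untransduced ones, sg2-IRF2 replicate 1 only barely (7.23 against 7.22). DHCR7 was 0.26 ± 0.05 (SE) higher with sgAAVS1 than in untransduced cells, or 1.195-fold (adjusted p = 0.00583). The reads behind it were 826 and 759 (untransduced) and 786 and 1003 (sgAAVS1).

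FADS1 (chr11:61799625-61829318, minus strand) had 8.80 and 8.75 (untransduced), 9.10 and 8.95 (sgAAVS1), 9.03 and 8.91 (sg1-IRF2) and 8.86 and 8.89 (sg2-IRF2). Untransduced cells were again the lowest, and FADS1 was 0.25 ± 0.05 higher with sgAAVS1 than in them (1.19-fold, adjusted p = 0.00736). FADS2 (chr11:61792980-61867354, plus strand) had 6.14 and 6.22, then 6.36 and 6.42, then 6.39 and 6.40, then 6.25 and 6.30, in the same order of groups. It was 0.21 ± 0.06 higher with sgAAVS1 (1.16-fold, adjusted p = 0.0396), and its untransduced libraries lay below all 6 guide libraries. The pair lie on opposite strands, the span of FADS1 within that of FADS2. Their exons overlap, in 4.8% of the exonic bases of FADS1 and 4.4% of those of FADS2. FADS1 had 2400 to 2947 reads in a library and FADS2 389 to 511. The strand setting is not given, so how many FADS2 reads could come from FADS1 is not known. Their calls may therefore not be separate.

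FASN (chr17:82078338-82098332, minus strand) had 9.59 and 9.58 (untransduced), 9.89 and 9.70 (sgAAVS1), 9.74 and 9.63 (sg1-IRF2) and 9.64 and 9.71 (sg2-IRF2). sgAAVS1 replicate 1 was its highest library, and FASN was 0.21 ± 0.06 higher with sgAAVS1 (1.15-fold, adjusted p = 0.042). Without that library its difference was 0.11. Of the other 7 members with an unadjusted p under 0.05, SREBF1 stood at 0.16 (adjusted p = 0.0563), ACACA at 0.14 (0.0696), INSIG1 at 0.17 (0.0902), ELOVL6 at 0.16 (0.0949), EBP at 0.14 (0.202) and MVK at 0.14 (0.247). SCAP, at -0.11 (0.26), was the one of the 7 below 0.

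The median member difference in sgAAVS1 against untransduced cells depended on single libraries. It was 0.06 without untransduced replicate 2 and 0.04 without untransduced replicate 1. Leaving out sgAAVS1 replicate 2 gave 0.12, and leaving out sgAAVS1 replicate 1 gave -0.01. Each of these fits leaves 1 library in a group compared, so the spread of that group is not measured and the counts of calls are not given. limma with voom weights called 6 members, the same 4 with SREBF1 and ACACA, and 4.81% of all tested genes. Over the 19 alternative settings tried, the DHCR7 call was lost in 3, that of FADS1 in 4, that of FASN in 8 and that of FADS2 in 11. HBZ and PECAM1 of the marker lists were also higher in this comparison, by 0.35 (adjusted p = 0.035) and 0.28 (0.041), and their part in the result was not tested.

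**Figure D4:**
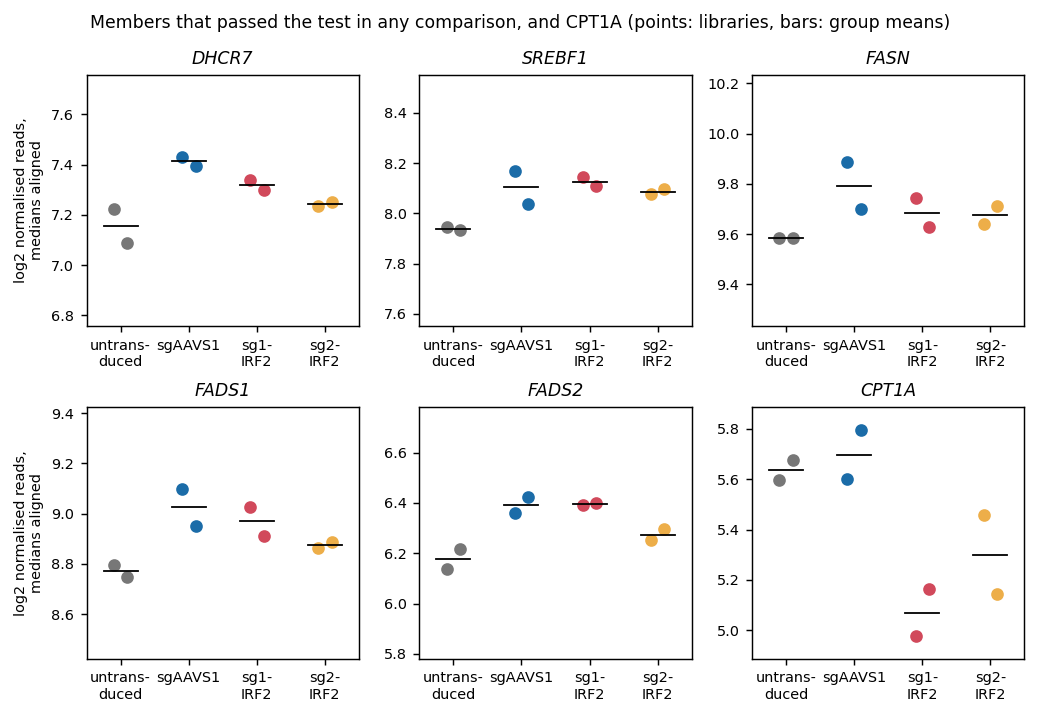
Log2 value, with library medians aligned, of each member called in at least 1 comparison and of CPT1A, a gene of fatty acid oxidation; points are libraries and bars are group means. In DHCR7, FADS1, FADS2, FASN and SREBF1, every guide library lies above both untransduced libraries, and in CPT1A the 4 IRF2-guide libraries lie below the others. The genes are shown because they were called, so this separation follows in part from that choice. Its share over all tested genes was not counted.

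The IRF2 guides were also compared with untransduced cells. This comparison shares its untransduced libraries with the one before, and the sgAAVS1 libraries were shared by that and the first, so the values are given side by side and are not independent. With both IRF2 guides, SREBF1 was higher and no other member was called, 1 of 30 (3.33%) against 2.52% of all tested genes (0.955% higher and 1.56% lower). With sg1-IRF2, SREBF1, FADS1 and FADS2 were higher and none was lower, 3 of 30 (10%) against 5.34% of all tested genes (2.4% higher and 2.94% lower). With sg2-IRF2, 0 of 30 passed, against 0.798% of all tested genes (0.143% higher and 0.655% lower). The unadjusted p with sg2-IRF2 was under 0.05 for 1 member, SREBF1, and for 9.05% of all tested genes. limma with voom weights also called 0 there.

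SREBF1 (chr17:17810399-17837002, minus strand) had log2 values of 7.94 and 7.93 (untransduced), 8.17 and 8.04 (sgAAVS1), 8.14 and 8.11 (sg1-IRF2) and 8.08 and 8.10 (sg2-IRF2). All 6 guide libraries lay above both untransduced ones, and the sgAAVS1 pair spanned both IRF2 guides. Against untransduced cells it was 0.17 ± 0.04 higher with both IRF2 guides (1.12-fold, adjusted p = 0.0339) and 0.19 ± 0.05 higher with sg1-IRF2 (1.14-fold, adjusted p = 0.0253). The difference was 0.15 with sg2-IRF2 (0.244) and 0.16 with sgAAVS1 (0.0563). The sgAAVS1 difference was called in 6 of 19 alternative settings, with voom weights at an adjusted p of 0.0386, and that of sg2-IRF2 in 3. The calls with both guides and with sg1-IRF2 were each lost in 8 of 19 settings, among them leaving out any 1 of the 6 untransduced or IRF2-guide libraries (adjusted p 0.0687 to 0.351 with both guides and 0.0511 to 0.215 with sg1-IRF2). Of the exonic bases of SREBF1, 6.9% overlap RAI1 on the other strand.

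FADS1 was 0.20 higher with sg1-IRF2 than in untransduced cells (adjusted p = 0.0301), and its difference with sg2-IRF2 was 0.10 (0.58). FADS2 was 0.22 higher with sg1-IRF2 (0.0301), and its difference with sg2-IRF2 was 0.10 (0.677). Between the guides the differences were 0.09 for FADS1 (0.457) and 0.12 for FADS2 (0.353), so they were not shown to differ between guides. The sg1-IRF2 calls were lost without any 1 of the untransduced or IRF2-guide libraries (adjusted p 0.0581 to 0.337 for FADS1, 0.0563 to 0.25 for FADS2), except that FADS1 was still called without sg1-IRF2 replicate 2. DHCR7 had differences of 0.16 with sg1-IRF2 (0.0694) and 0.09 with sg2-IRF2 (0.673).

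Other genes of the same biology were examined as lists. In both IRF2 guides against sgAAVS1, 0 of 16 tested genes of other sterol and lipid synthesis and SREBP targets passed (1 with unadjusted p under 0.05), 0 of 10 of the non-sterol mevalonate branch (2), 0 of 7 of SREBP processing and sterol-regulated degradation (0), 0 of 7 of sterol efflux and storage (2) and 0 of 16 of other fatty acid and lipid synthesis (2). Of all tested genes, 1.42% passed in this comparison and 11.1% had an unadjusted p under 0.05. Of 8 tested genes of fatty acid oxidation, 1 passed. It was the only call over all these lists, which is near the share of all tested genes and no result about the lists.

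That gene was CPT1A, the enzyme that commits long-chain fatty acids to import into mitochondria. It had log2 values of 5.60 and 5.68 (untransduced), 5.60 and 5.80 (sgAAVS1), 4.98 and 5.16 (sg1-IRF2) and 5.46 and 5.14 (sg2-IRF2). All 4 IRF2-guide libraries lay below all 4 others on this scale. The reads behind them were 157 to 249 with the IRF2 guides and 221 to 331 in the control libraries. CPT1A was lower with both guides than with sgAAVS1 (-0.51 ± 0.09 SE on the log2 scale, adjusted p = 0.00181), with a difference of -0.63 for sg1-IRF2 (0.00108) and -0.40 for sg2-IRF2 (0.0296). The guides were not shown to differ from each other (-0.23, adjusted p = 0.304). Against untransduced cells the difference was -0.45 with both guides (0.00514), a call lost in 4 of 19 settings, among them without untransduced replicate 1 (0.0917) or 2 (0.206), and sgAAVS1 itself differed from untransduced cells by 0.06 (0.813). The call against sgAAVS1 was lost in 1 of 19 settings, the fit without a mean-variance trend (adjusted p = 0.252). That of sg2-IRF2 alone was lost in 7, among them leaving out either untransduced library, sgAAVS1 replicate 2 or sg2-IRF2 replicate 2 (adjusted p 0.0648 to 0.445).

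Among the other synthesis genes and SREBP targets, LRP8, a lipoprotein receptor, had log2 values of 6.07 and 6.13 (untransduced), 6.47 and 6.37 (sgAAVS1), 6.31 and 6.30 (sg1-IRF2) and 6.31 and 6.35 (sg2-IRF2). Against untransduced cells it was 0.32 higher with sgAAVS1 (adjusted p = 0.00306) and 0.22 higher with both IRF2 guides (0.0216), all 6 guide libraries being above the untransduced ones. Leaving out untransduced replicate 1 ended the sgAAVS1 call (adjusted p = 0.0741), and leaving out any 1 of the untransduced or IRF2-guide libraries ended that of both IRF2 guides (0.0576 to 0.267).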

How the data were processed

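rRNA-depleted total RNA of 8 libraries was sequenced from directional kits, per the labels' protocols. cutadapt, Bowtie2 and hg38 are named in the submitters' processing notes; no counting tool, strand setting or annotation is given in the sources used here. All the log2 values deposited by the authors are scaled by 1 factor per library. Low values showed that they are whole reads on a log2 scale, with genes without reads set at 0.9 read, and every library's reads were recovered from them (tolerance 0.01 read). Genes with a mean deposited log2 of at least 0 were tested (14665 of 35805; 167 rows share a name with another), after aligning the library medians over them, which moved libraries by -0.08 to 0.07. limma 3.58.1 in R 4.3.3 was fitted to all 8 libraries without a block, with moderated two-sided tests, 4 residual degrees of freedom and a trend of variance on level. Benjamini-Hochberg adjustment ran over all tested genes in each of 8 comparisons. A gene called had an adjusted p under 0.05. Differences are group means subtracted on the log2 scale. Most genes whose libraries are said not to overlap were picked because they were called, so the separation follows in part from that choice. How many of all tested genes have such a separation was not counted. The fit was tested on simulated data. Members with every library's value are those called in at least 1 comparison, the main regulators, and HMGCS1 and STARD4, which were added after their values were seen; of other lists, at most the 3 genes with the lowest p among those called are named. Results for some genes of the lists are not reported here. The members and lists were chosen with earlier results of these data known. Figures were drawn with Python 3.11.15 and matplotlib 3.10.9. With 5248359 to 6738348 reads per library, the median half-width of a member's interval was 0.10 on the log2 scale where both IRF2 guides were pooled and 0.12 in the other comparisons.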

Additional observations from a re-analysis of the deposited data

How the results depend on the processing

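Across 19 alternatives, the member differences called with all 8 libraries under the settings of the report kept their sign; those called only with a library left out are not covered by this. No member was called for both IRF2 guides or sg1-IRF2 against sgAAVS1 in any alternative except those that left out a library, and counts elsewhere moved. The deposited values without aligned medians gave 2 members for both IRF2 guides against untransduced cells (2.5% of all tested genes were called there). They gave 8, all higher, for sg1-IRF2 against sg2-IRF2 (13.3% of all tested genes) and 7 for sg1-IRF2 against untransduced cells (9.18%). For sg2-IRF2 against sgAAVS1 they gave 7, all lower (8.16%), and for sgAAVS1 against untransduced cells 7 (4.75%). In sg1-IRF2 against sg2-IRF2 the median of all genes is then 0.11. Of the calls there 95.2% are higher, against 37.2% with aligned medians. The share of higher calls moved likewise in sg1-IRF2 against sgAAVS1 (29.3% to 39.7%), sg2-IRF2 against sgAAVS1 (52.6% to 12.9%), sgAAVS1 against untransduced cells (46.6% to 62.4%), sg1-IRF2 against untransduced cells (45.0% to 77.6%) and sg2-IRF2 against untransduced cells (17.9% to 6.70%). Quantile normalization gave 2 members for both guides against untransduced cells (3.05% of all tested genes). It gave 7 for sg1-IRF2 against untransduced cells (6.5%) and 2 for sg2-IRF2 against sgAAVS1 (4.22%). For both guides against untransduced cells, no filter and voom gave 2 each (1.93% and 2.78% of all tested genes). Array weights gave 3 there (5.13%) and a fit of only the groups compared 4 (6.42%). Array weights gave 5 for sg1-IRF2 against untransduced cells (8.41% of all tested genes). Only the groups compared gave 6 (10.6%), 1 for sg2-IRF2 (2.72%) and 2 for sgAAVS1 (2.04%), each against untransduced cells. A minimum mean log2 of 2 gave 1 for sg2-IRF2 against sgAAVS1 (4.17% of all tested genes). Without a trend, the calls of both guides, sg1-IRF2 and sgAAVS1 against untransduced cells all fell to 0. Of all tested genes, 0.32%, 0.464% and 0.0682% were then called. With replicates that agree within counting noise counted as 1 sample (chosen after seeing the data), these calls were lost too. Fewer of all tested genes were called there than with the settings of the report, in every comparison. Only the sgAAVS1 pair measures the spread there, so that loss does not decide whether the members differ. Leaving out 1 library in turn gave a median member difference of -0.09 to 0.02 for both guides against sgAAVS1. Against untransduced cells it was 0.00 to 0.02 for both guides and -0.01 to 0.12 for sgAAVS1. For sg1-IRF2 against sg2-IRF2 it was -0.04 to 0.02. For sg1-IRF2 it was -0.09 to 0.02 against sgAAVS1 and 0.00 to 0.04 against untransduced cells. For sg2-IRF2 it was -0.09 to 0.04 against sgAAVS1 and 0.03 to 0.04 against untransduced cells. Such a fit leaves 1 library in a group, so counts of members called are not given for it. The cause of the changes between settings was not tested. The number of all tested genes called moved with the setting too, as given below. With the replicate block the counts were 0 for both guides against sgAAVS1, 1 against untransduced cells, 3 for sg1-IRF2 and 4 for sgAAVS1 against untransduced cells, as without it; replicate numbers share only a name, the deviations correlating at -0.0794 to 0.216 between groups. Over all genes, the calls ran from 59 (no trend) to 569 (no filter) around 208 for both guides against sgAAVS1, 49 to 314 around 116 and 60 to 1196 around 500 for sg1-IRF2 and sg2-IRF2 against it, 4 to 1952 around 231 for sg1-IRF2 against sg2-IRF2, 10 to 1335 around 648 for sgAAVS1 against untransduced cells, and 47 to 943 around 369, 68 to 1562 around 783 and 26 to 399 around 117 for both guides, sg1-IRF2 and sg2-IRF2 against untransduced cells. PMVK, with 72 reads in its lowest library, had the widest intervals.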

Other observations

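Other lipid genes passed the test in single comparisons, each named for its low p within its list. They were picked from all the lists over 8 comparisons and are no result about the lists. Of all tested genes, 0.791% were called in sg1-IRF2 and 3.41% in sg2-IRF2 against sgAAVS1, and 1.58% between the guides. Against untransduced cells, 5.34% were called with sg1-IRF2 and 2.52% with both IRF2 guides. ACSL4, which activates arachidonate, was lower by -0.22 on the log2 scale with sg1-IRF2 than with sgAAVS1 (limma, adjusted p = 0.0236). SOAT1, which esterifies cholesterol for storage, was lower with sg2-IRF2 than with sgAAVS1 (-0.23, adjusted p = 0.0415), and OSBPL2, an oxysterol-binding-protein-related lipid carrier, was higher (0.21, 0.0355). OSBPL2 also differed between the guides, at -0.22 for sg1-IRF2 against sg2-IRF2 (0.0493). Against untransduced cells, sg1-IRF2 had less MYLIP, a ubiquitin ligase of lipoprotein receptors (-0.17, 0.0432), and more MID1IP1, an activator of acetyl-CoA carboxylase (0.19, 0.0277), and MCAT, of mitochondrial fatty acid synthesis (0.36, 0.0466). TECR, the reductase of very-long-chain fatty acid elongation, was higher with both IRF2 guides than in untransduced cells (0.21, 0.0379). Each of these calls was lost in 8 to 11 of the 19 alternative settings.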
